A study of Homo sapiens with 4 samples.

Results

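The enzymes that hydroxylate and crosslink collagen were followed in MDA-MB-231, an established human cell line derived from a triple-negative breast cancer. The set was chosen by gene symbol, with earlier results of these data known. It held 10 genes of the 61471 gene names in each count table: 5 lysyl oxidases (LOX, LOXL1, LOXL2, LOXL3 and LOXL4), 3 lysyl hydroxylases (PLOD1, PLOD2 and PLOD3) and 2 catalytic subunits of prolyl 4-hydroxylase (P4HA1 and P4HA2). RNA was sequenced in 4 libraries. The EGFP negative group, labelled with increased extravasation (the exit of tumour cells from a vessel), and the EGFP positive group, labelled without that increase, had 2 libraries each. Cells of both groups were labelled wild type and had been transfected with a fusion of histone H2B to EGFP (H2B-EGFP) and with a red fluorescent protein under a viral promoter (CMV-RFP). The labels tie EGFP status to extravasation status, so the effects of both on these genes cannot be told apart. Polyploidy and cell-matrix adhesion appear in the title of the series, but the ploidy of either group is not in the labels. Nothing in the labels tells whether replicate libraries were grown separately or which clone they represent. The p-values therefore cover only the spread between libraries, which could be technical.

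Collagen is modified in steps, and hydroxylation of the chains comes before crosslinking. Inside the endoplasmic reticulum, prolyl 4-hydroxylase converts prolines to hydroxyproline, which stabilises the triple helix, and lysyl hydroxylases convert lysines to hydroxylysine, the site of sugar attachment and of the most stable crosslinks. Both families need iron, ascorbate and 2-oxoglutarate. After secretion, the copper-dependent lysyl oxidases oxidise lysines and hydroxylysines to aldehydes, which then join neighbouring chains. In breast tumours these enzymes are known for stiffening the matrix around the cells.

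Gene counts summed to 12635576 and 11620076 in EGFP negative libraries 1 and 2, and to 11620005 and 11445076 in EGFP positive libraries 1 and 2. Levels are given as CPM (counts scaled to a common total after TMM scaling of each library), where 3 counts were worth 0.241 to 0.260 CPM. As a check of the labelled cell line, all 5 genes listed as present (VIM, CD44, KRT18, EGFR and CAV1) exceeded 1 CPM in every library. ESR1, PGR and CDH1, listed as absent or low, had at most 3 counts in any library, while ERBB2 was at 99.2 and 94.95 CPM in EGFP negative libraries and 81.5 and 80.6 CPM in EGFP positive libraries. GATA3, the last gene of that list, was at 9.34 to 11.2 CPM. Markers of fibroblasts, another source of these enzymes, summed to 7.95 and 7.46 CPM in EGFP negative libraries and 5.54 and 3.39 CPM in EGFP positive libraries over 6 genes. The fibroblast markers DCN and FAP were at 0 in all 4 libraries, and PDGFRB was at 5.16 ± 1.00 CPM in EGFP negative and 2.51 ± 0.97 CPM in EGFP positive libraries (SD, n = 2 each). Among leukocyte markers, CD3E was at 0 in all 4 libraries, and PTPRC was at 0.321 and 0.171 CPM in EGFP negative and 0.519 and 0.174 CPM in EGFP positive libraries. LYZ was at 0.803 and 1.29 CPM in EGFP negative and 0.173 and 0.260 CPM in EGFP positive libraries, and CD14 at 0.803 and 0.771 CPM in EGFP negative and 0.519 and 0.174 CPM in EGFP positive libraries. Endothelial markers summed to 13.9 and 11.8 CPM in EGFP negative and 14.2 and 14.4 CPM in EGFP positive libraries over 5 genes. Most of that sum came from KDR, which averaged 9.29 CPM in EGFP negative and 13.2 CPM in EGFP positive libraries, while PECAM1 averaged 3.41 CPM in EGFP negative and 0.780 CPM in EGFP positive libraries. CDH5 was at 0, and VWF and TEK had at most 3 counts in any library. The part of such cells in the results was not tested.

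In EGFP negative cells 3 of the 10 genes rose and 1 fell. The rises were in 1 gene of each family: LOXL1 was 1.77-fold, PLOD1 1.67-fold and P4HA1 1.78-fold higher. LOXL3, which had the lowest level per length of all members, was 2.59-fold lower. In bulk RNA, fewer cells that express a gene and less of its RNA per cell cannot be told apart. All 10 members passed the filter on low counts. Of these, 4 (40%) passed edgeR's quasi-likelihood test at an adjusted p of 0.05, where p-values were adjusted by Benjamini-Hochberg over all 16413 genes tested; the background was 18.9% of tested genes, 9.40% higher and 9.46% lower. The median log2 fold change was 0.16 over the 10 members and -0.0028 over all tested genes. The groups did not overlap in CPM for 9 of the 10 members, against 57.4% of all tested genes. The number of calls across all genes depended on single libraries and was 1543 higher and 1552 lower with all 4. Leaving out EGFP negative library 1 gave 2157 higher and 2339 lower, and leaving out EGFP negative library 2 gave 2477 and 2465. Leaving out EGFP positive library 1 gave 784 higher and 715 lower, and leaving out EGFP positive library 2 gave 720 and 732.

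**Figure D1:**
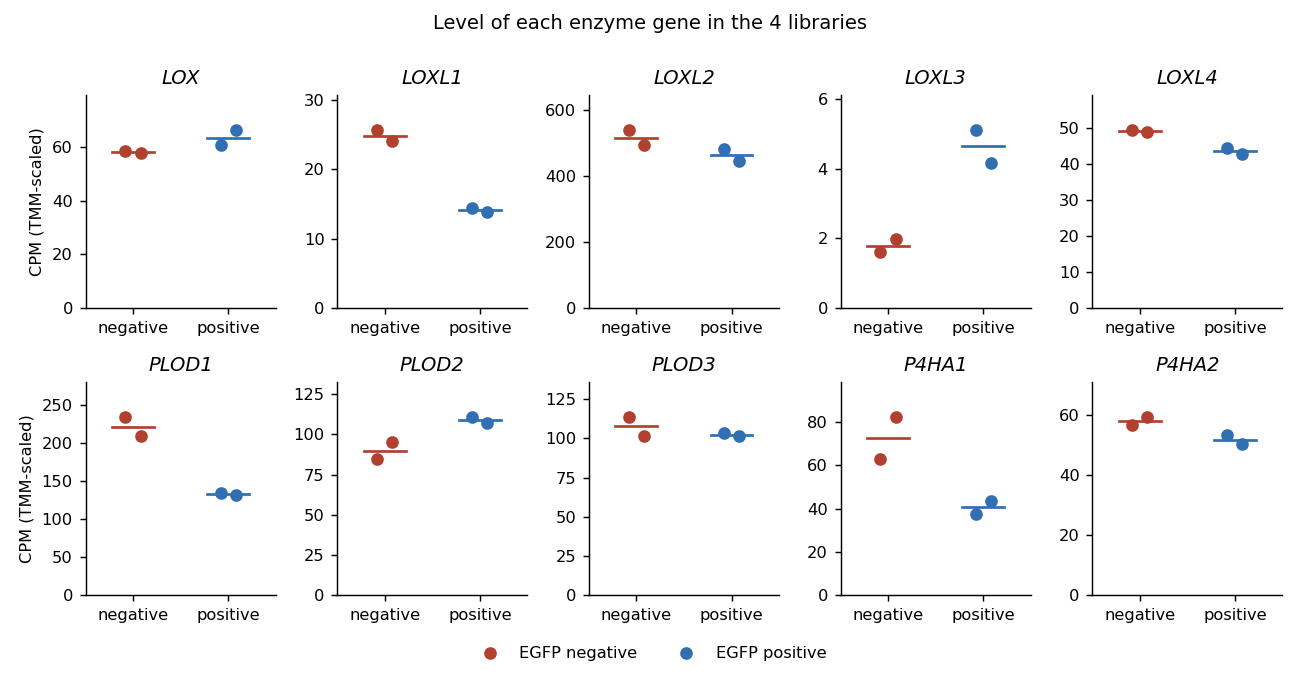
Level of each of the 10 enzyme genes, in CPM on a linear axis from 0, with a point for each library and a line at the mean of the 2 libraries of a group. LOXL1, PLOD1 and P4HA1 stand clearly higher in EGFP negative libraries and LOXL3 lower, while the libraries of the groups overlap for PLOD3.

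Among the lysyl oxidases, 1 gene rose, 1 fell and 3 did not pass the test. LOXL2, which crosslinks collagen IV of basement membranes, had the highest level per length of all members. It had 540 and 493 CPM in EGFP negative libraries 1 and 2, against 483 and 445 CPM in EGFP positive libraries 1 and 2. Both EGFP negative libraries lay above both EGFP positive ones, but the log2 fold change of 0.15 did not pass (95% interval -0.02 to 0.33, edgeR adjusted p = 0.208). Of 11 alternatives LOXL2 passed under 1, the fit without EGFP negative library 2, where the change was 0.23. That fit left 1 EGFP negative library, so its spread came from the EGFP positive pair alone. The change was 0.09 when EGFP negative library 1 was left out. Leaving out library 1 or 2 of the EGFP positive group gave 0.22 or 0.10. By DESeq2 the change in LOXL2 did not pass (adjusted p = 0.332).

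LOXL1, known for its role in assembling elastic fibres, had 25.6 and 24.1 CPM in EGFP negative libraries and 14.4 and 13.8 CPM in EGFP positive libraries. The groups were far apart compared with the spread within them. Its log2 fold change was 0.82 ± 0.14 (SE; edgeR adjusted p = 0.000824). On GRCh38 the gene lies on the plus strand of chromosome 15, from 73926462 to 73952136. An antisense gene, LOXL1-AS1, covers 9.89% of its exonic bases, and the counting used no strand. LOXL1-AS1 itself had 290 and 211 counts in EGFP negative libraries and 217 and 244 in EGFP positive libraries, with overlapping groups (adjusted p = 0.86).

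LOXL3, the family member linked in mice to palate development, was expressed at a low level. It had 20 and 23 counts (1.61 and 1.97 CPM) in EGFP negative libraries and 59 and 48 counts (5.10 and 4.17 CPM) in EGFP positive libraries. Both EGFP negative libraries lay under both EGFP positive ones. The log2 fold change was -1.37 ± 0.31 (SE; edgeR adjusted p = 0.00657), the widest error of the 10 genes, and the call was lost without EGFP positive library 1 (-1.22, adjusted p = 0.0739). LOXL3 lies on the minus strand of chromosome 2 (74532258 to 74553961), and exons of HTRA2 on the other strand cover 14.6% of its exonic bases. HTRA2, a mitochondrial protease gene, was also lower, with 37.0 and 32.1 CPM in EGFP negative libraries and 48.3 and 42.2 CPM in EGFP positive libraries (adjusted p = 0.0337). The part of shared sequence in the LOXL3 result was not tested.

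LOX, the founding member of the family, had 58.6 and 58.0 CPM in EGFP negative libraries and 60.9 and 66.4 CPM in EGFP positive libraries. The slightly lower level in EGFP negative cells did not pass, with a log2 fold change of -0.13 (95% interval -0.34 to 0.08, edgeR adjusted p = 0.424). LOXL4, which like LOXL2 and LOXL3 carries scavenger receptor domains, had 49.4 and 48.8 CPM in EGFP negative libraries and 44.6 and 42.7 CPM in EGFP positive libraries. Its groups did not overlap, yet the log2 fold change of 0.17 (95% interval -0.05 to 0.39) did not pass (adjusted p = 0.282). The intervals of LOX, LOXL2 and LOXL4 all lay below the estimate for LOXL1 and above that for LOXL3.

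The lysyl hydroxylases also differed among themselves. PLOD1, which acts on lysines in the helical part of collagen, had 233 and 209 CPM in EGFP negative libraries, against 135 and 131 CPM in EGFP positive libraries. Of the 10 members it had the smallest p, at rank 257 among all tested genes. Its log2 fold change was 0.74 ± 0.09 (SE; edgeR adjusted p = 4.13e-05). PLOD1 lies on the plus strand of chromosome 1 (GRCh38, 11934717 to 11975537), and no other gene of the tables overlapped its exons. For PLOD3, an enzyme that also transfers glucose to hydroxylysine-linked galactose, the libraries overlapped, with 114 and 102 CPM in EGFP negative libraries and 103 and 102 CPM in EGFP positive libraries. The log2 fold change of PLOD3 was 0.07 (95% interval -0.12 to 0.27, adjusted p = 0.656), and its sign turned without EGFP negative library 1 (-0.01).

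PLOD2, which hydroxylates lysines in the telopeptides at the chain ends and so favours hydroxylysine-derived crosslinks, lay on the other side of zero. It had 84.4 and 94.95 CPM in EGFP negative libraries and 111 and 107 CPM in EGFP positive libraries. Both EGFP negative libraries were lower, and the log2 fold change was -0.28 ± 0.09 (SE). That missed the threshold narrowly (edgeR adjusted p = 0.0512). The change in PLOD2 passed under 4 of 11 alternatives, among them limma-voom (adjusted p = 0.0482) and a stricter filter on low counts (adjusted p = 0.0465). It did not pass by DESeq2 (adjusted p = 0.117) or, by edgeR, without a filter on low counts (adjusted p = 0.0963). RLE scaling (adjusted p = 0.0547) and upper quartile scaling (adjusted p = 0.0631) did not give a call either. The log2 fold change was -0.36 without EGFP negative library 2 and -0.20 without EGFP negative library 1.

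Of the catalytic subunits of prolyl 4-hydroxylase, P4HA1 rose and P4HA2 did not pass. P4HA1, the major subunit in most cells, had 63.0 and 82.3 CPM in EGFP negative libraries and 37.7 and 43.7 CPM in EGFP positive libraries. Relative to their mean, the EGFP negative libraries differed more from each other than for any other member called, at 72.6 ± 13.6 CPM (SD, n = 2), yet both exceeded both EGFP positive libraries, at 40.7 ± 4.20 CPM (SD, n = 2). The log2 fold change was 0.83 ± 0.13 (SE; edgeR adjusted p = 0.000439). It was 1.01 without EGFP negative library 1 and 0.64 without EGFP negative library 2. Each of those fits left 1 EGFP negative library, so its spread came from the EGFP positive pair alone. P4HA2 had 56.8 and 59.3 CPM in EGFP negative libraries and 53.4 and 50.3 CPM in EGFP positive libraries. Its groups did not overlap, and its log2 fold change of 0.16 (95% interval -0.05 to 0.38) did not pass (adjusted p = 0.291). P4HA1 lies on chromosome 10 (73007217 to 73096974, minus strand) and P4HA2 on chromosome 5 (132190147 to 132227857, minus strand).

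**Figure D2:**
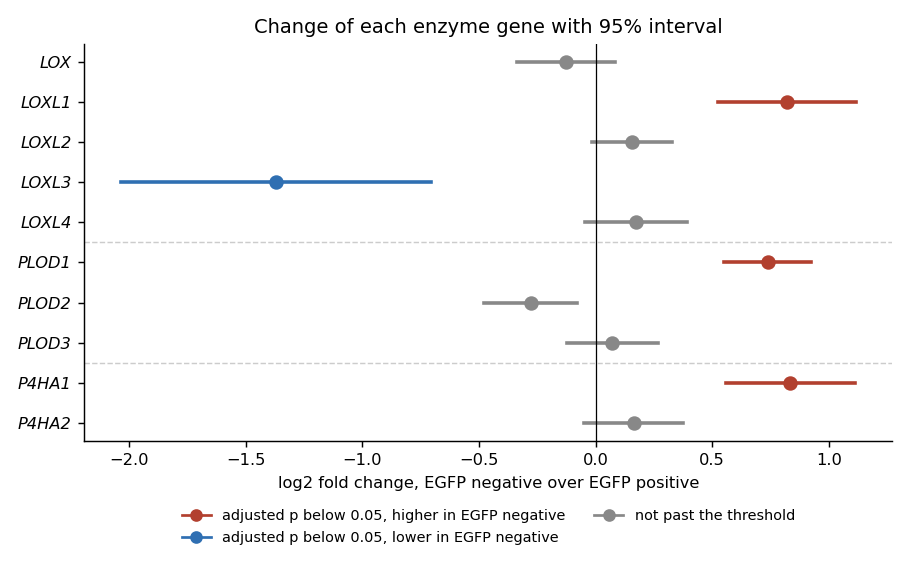
Log2 fold change of each enzyme gene, EGFP negative over EGFP positive, as a point with its 95% interval from the edgeR fit. Dashed lines part lysyl oxidases, lysyl hydroxylases and prolyl hydroxylases, and 1 gene of each family lies well to the right of zero while LOXL3 lies far to the left.

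Levels of different genes were compared per kilobase of the counted gene model (CPM per kb), which depends on the annotated length as well as on the transcripts in use. LOXL3 (14.6%), P4HA2 (10.6%) and LOXL1 (9.89%) share the largest parts of their exonic bases with other genes. Pairs matching several genes were not counted, which can lower the levels per kb and so the order of these members. In EGFP negative cells the order of these levels was LOXL2 (139), PLOD1 (74.3), PLOD3 (38.2), P4HA1 (24.8), PLOD2 (16.7), LOXL4 (13.7), P4HA2 (11.2), LOX (11.003), LOXL1 (10.6) and LOXL3 (0.416). In EGFP positive cells it was LOXL2 (125), PLOD1 (44.6), PLOD3 (36.3), PLOD2 (20.3), P4HA1 (13.9), LOXL4 (12.1), LOX (12.0), P4HA2 (10.0), LOXL1 (6.002) and LOXL3 (1.08). P4HA1 and PLOD2 thus stood in opposite order in the groups per kb, but not without division by length. In CPM, PLOD2 averaged 89.7 against 72.6 for P4HA1 in EGFP negative libraries. In EGFP positive libraries the means were 109 CPM for PLOD2 and 40.7 CPM for P4HA1. P4HA2 and LOX overlapped between libraries in EGFP negative cells, and LOXL4 and LOX did so in EGFP positive cells, so that those neighbours could not be ordered. In EGFP negative cells both LOXL1 libraries lay under both LOX libraries, but the means of these genes differed by less than the SD of LOXL1 (0.466 CPM per kb, n = 2).

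The make-up of each family can be read from the share of each member. Among lysyl hydroxylases, PLOD1 took 58.3 and 56.6% of the summed level per kb in EGFP negative libraries and 44.1 and 44.0% in EGFP positive libraries. PLOD2 took 11.7 and 14.3% in EGFP negative libraries and 20.1 and 19.9% in EGFP positive libraries. The ratio of PLOD1 to PLOD2, per kb, was 4.98 and 3.96 in EGFP negative libraries and 2.19 and 2.21 in EGFP positive libraries, with no overlap. The share of P4HA1 in the prolyl hydroxylase pair was 66.2 and 71.1% in EGFP negative libraries, against 55.6 and 60.6% in EGFP positive libraries. Without division by length P4HA1 averaged 55.3% in EGFP negative libraries and 43.9% in EGFP positive libraries, so which subunit led in EGFP positive cells depended on that choice. LOXL2 held nearly the same share of the lysyl oxidases in both groups, 80.1 and 79.0% in EGFP negative libraries and 80.6 and 79.3% in EGFP positive libraries. LOXL1 took 6.03 and 6.12% in EGFP negative libraries and 3.80 and 3.90% in EGFP positive libraries. These shares describe the 4 libraries and were not tested.

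**Figure D3:**
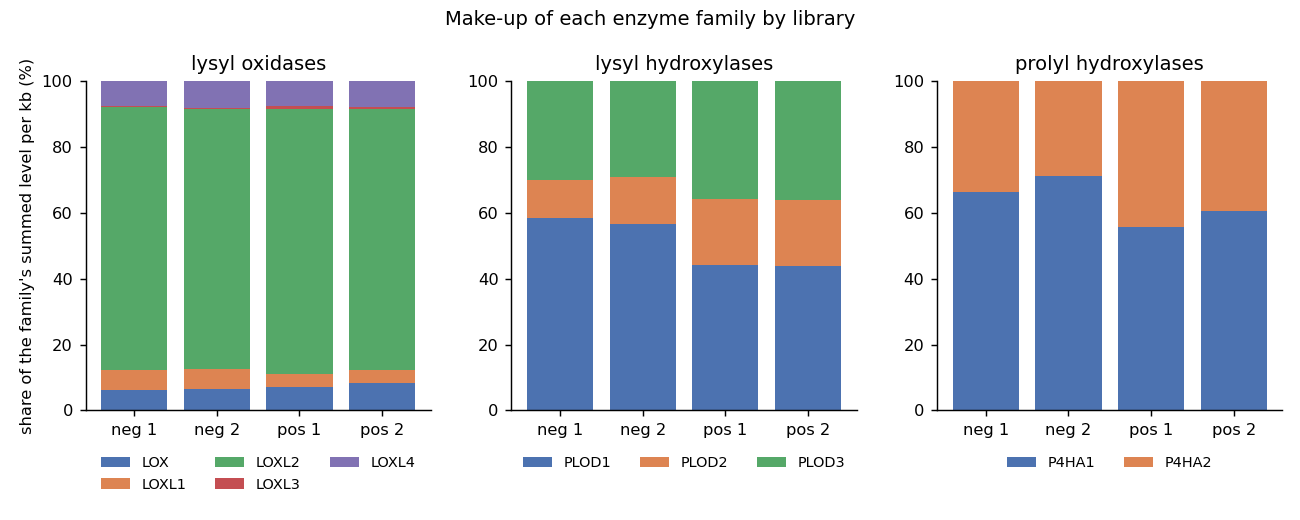
Share of each member in the summed level per kb of its family, in percent, with a stacked bar for each library (neg, EGFP negative; pos, EGFP positive). The PLOD1 and P4HA1 segments are taller in the EGFP negative bars, and LOXL2 fills about the same part of all 4 lysyl oxidase bars.

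P4HA1, PLOD2 and LOX are textbook targets of the hypoxia-inducible factors, which bind the core letters ACGTG or GCGTG in DNA. The 250 bases before the start of the transcript are shown for the 4 genes that changed and for PLOD2 and LOX, so that the letters in front of genes that differed in their change can be read side by side. Sequences are from RefSeq on GRCh38.p14, written 5′ to 3′ on the gene's strand, and capitals mark every ACGTG or GCGTG found on either strand (CACGT and CACGC on the other).
P4HA1 (chr10:73096867-73097116, minus strand): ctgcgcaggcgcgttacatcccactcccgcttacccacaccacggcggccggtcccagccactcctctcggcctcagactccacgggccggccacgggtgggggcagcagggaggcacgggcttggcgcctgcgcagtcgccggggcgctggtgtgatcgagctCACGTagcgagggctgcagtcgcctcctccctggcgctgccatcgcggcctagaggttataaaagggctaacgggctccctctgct
PLOD1 (chr1:11934467-11934716, plus strand): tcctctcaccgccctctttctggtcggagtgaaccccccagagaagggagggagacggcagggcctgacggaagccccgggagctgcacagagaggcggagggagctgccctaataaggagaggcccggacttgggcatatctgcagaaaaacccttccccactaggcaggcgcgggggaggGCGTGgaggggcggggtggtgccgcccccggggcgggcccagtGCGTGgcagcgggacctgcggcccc
LOXL1 (chr15:73926212-73926461, plus strand): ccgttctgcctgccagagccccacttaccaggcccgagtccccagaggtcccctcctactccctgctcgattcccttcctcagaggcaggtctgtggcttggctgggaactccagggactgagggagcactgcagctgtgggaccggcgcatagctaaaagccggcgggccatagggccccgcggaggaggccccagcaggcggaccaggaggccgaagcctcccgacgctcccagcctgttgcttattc
LOXL3 (chr2:74553943-74554192, minus strand): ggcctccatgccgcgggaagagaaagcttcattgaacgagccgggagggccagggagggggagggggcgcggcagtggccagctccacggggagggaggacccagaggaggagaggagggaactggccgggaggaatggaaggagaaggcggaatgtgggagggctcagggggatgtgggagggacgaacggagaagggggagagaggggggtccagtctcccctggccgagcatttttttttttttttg
PLOD2 (chr3:146161185-146161434, minus strand): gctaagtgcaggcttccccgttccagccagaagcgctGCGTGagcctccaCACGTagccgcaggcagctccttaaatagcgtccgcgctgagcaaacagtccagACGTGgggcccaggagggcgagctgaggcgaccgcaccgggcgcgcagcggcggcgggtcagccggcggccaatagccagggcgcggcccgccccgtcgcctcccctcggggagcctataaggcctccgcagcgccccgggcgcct
LOX (chr5:122078260-122078509, minus strand): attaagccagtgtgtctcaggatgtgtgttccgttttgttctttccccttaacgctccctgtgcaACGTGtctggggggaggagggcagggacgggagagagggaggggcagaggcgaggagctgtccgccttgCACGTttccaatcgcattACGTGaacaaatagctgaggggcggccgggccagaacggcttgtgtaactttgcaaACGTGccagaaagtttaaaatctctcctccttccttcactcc

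Matches were counted in these windows without overlap between them. The P4HA1 window held 1, with its first base 86 bases before the start, and the PLOD1 window 2, at 68 and 25 bases. PLOD2 had 3, at 213, 200 and 146 bases, and LOX 4, at 185, 116, 98 and 42 bases, although neither gene passed the test for a change. The windows shown for LOXL1 and LOXL3 held none. RefSeq lists several starts for some genes, 3 for LOX and 2 for LOXL3, and the window shown is the first listed; the second of LOXL3 held 1 match. Windows were found for 9 of the 10 members. Of those 9, 4 had a match in the first listed window, while 43.1% of the first windows of all 27305 genes in the table did. A match is a run of letters and does not show binding. The RefSeq start of PLOD2 lies 2541 bases inside the gene model used for counting.

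Other hypoxia targets were measured beside these windows. Of 15 tested genes of a list of 16, 6 rose and 1 fell, with a median log2 fold change of 0.17 against -0.0028 over all tested genes. DDIT4, an inhibitor of mTOR signalling, had a log2 fold change of 1.60, NDRG1 of 1.15 and the mitophagy gene BNIP3 of 0.83 (adjusted p = 2.11e-08, 1.98e-06 and 1.92e-05). ADM, encoding adrenomedullin, went the other way at -1.56 (adjusted p = 1.56e-07).

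No partner of the hydroxylases passed as higher beside PLOD1 and P4HA1. Among 7 tested genes of 8 in the list of prolyl hydroxylase partners, 0 rose and 2 fell by edgeR, with 0 higher also at an unadjusted p of 0.05 and by DESeq2. The list's median log2 fold change was 0.09. P4HB, the protein disulfide isomerase that pairs with the catalytic subunits in prolyl 4-hydroxylase, had 880 and 831 CPM in EGFP negative libraries and 814 and 794 CPM in EGFP positive libraries (log2 fold change 0.09, 95% interval -0.07 to 0.24, adjusted p = 0.45). P4HA3, a further catalytic subunit, had at most 0.321 CPM in any library and was not tested. The prolyl 3-hydroxylase gene P3H2, whose product acts on basement membrane collagen, fell to 86.3 ± 1.45 CPM in EGFP negative cells, against 140 ± 1.08 CPM in EGFP positive cells (SD, n = 2 each; log2 fold change -0.70 ± 0.09, SE, adjusted p = 6.13e-05). P3H1 fell by less, with a log2 fold change of -0.33 (adjusted p = 0.0387), and that call was lost without EGFP positive library 1 (adjusted p = 0.48) or library 2 (adjusted p = 0.0594). CRTAP and PPIB, which form a complex with P3H1, did not pass (log2 fold changes 0.12 and 0.15).

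Among genes of folding, glycosylation and secretion of collagen, 1 was higher and 2 were lower of 12 tested in a list of 13, a share of calls not far from the 18.9% of all tested genes, and the median log2 fold change was 0.10. The changes included both galactosyltransferases that act on hydroxylysine, in opposite directions. COLGALT2 had 45.5 and 43.0 CPM in EGFP negative libraries and 25.7 and 23.3 CPM in EGFP positive libraries, a log2 fold change of 0.85 ± 0.12 (SE), and passed (adjusted p = 0.000143). COLGALT1 had 336 and 300 CPM in EGFP negative libraries and 441 and 430 CPM in EGFP positive libraries, a log2 fold change of -0.45 ± 0.08 (SE), and passed (adjusted p = 0.00131). Neither gene's groups overlapped. FKBP14, a prolyl isomerase, was lower (-0.45, adjusted p = 0.0279), a call that was lost without EGFP positive library 1 (adjusted p = 0.145) or library 2 (adjusted p = 0.267). SERPINH1, the collagen chaperone HSP47, did not pass (0.12, 95% interval -0.06 to 0.30).

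**Figure D4:**
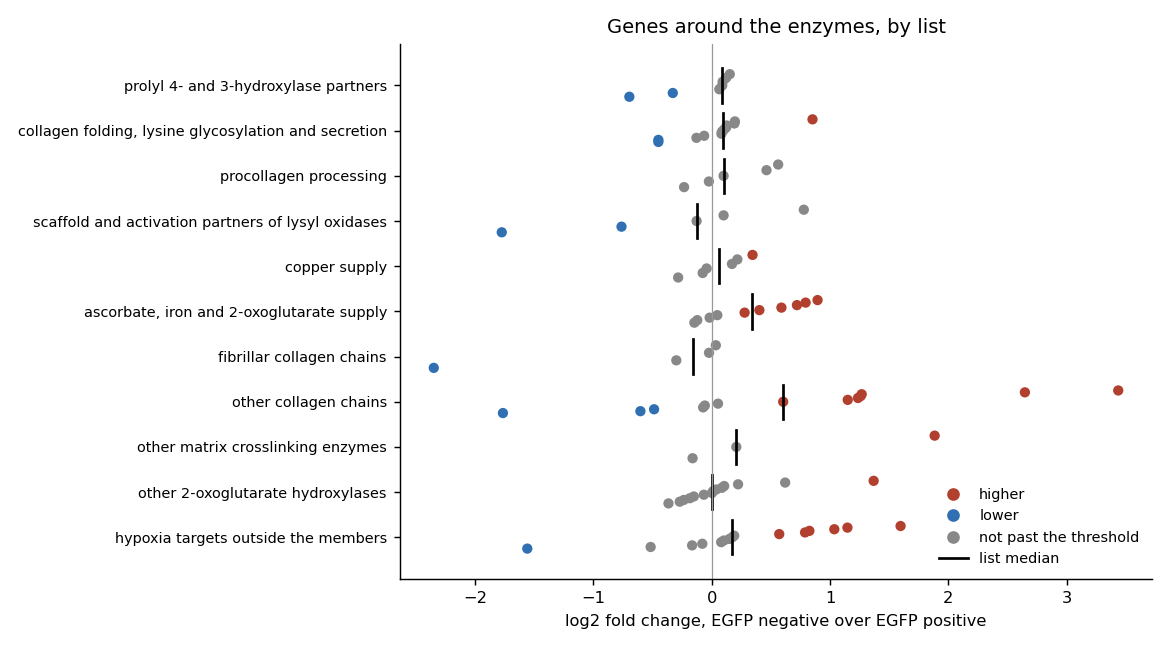
Log2 fold change, EGFP negative over EGFP positive, of every tested gene in the 11 lists around the enzymes, 1 point per gene, with a black bar at each list's median. Points of collagen chains other than the fibrillar ones spread over the widest range, from -1.76 to 3.43, the lowest point is the fibrillar chain COL5A2 at -2.35, and most partners of the prolyl hydroxylases gather near zero.

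No tested gene of the lists for activating or guiding the lysyl oxidases outside the cell passed as higher. BMP1, the protease that frees LOX of its propeptide and trims procollagen, had 36.9 and 34.5 CPM in EGFP negative libraries and 34.3 and 32.3 CPM in EGFP positive libraries (log2 fold change 0.10, 95% interval -0.14 to 0.34, adjusted p = 0.609). Of 5 tested genes of procollagen processing in a list of 9, 0 rose and 0 fell by edgeR, and likewise at an unadjusted p of 0.05 and by DESeq2. FURIN, a proprotein convertase, was at -0.02. Of 5 tested scaffold and activation partners in a list of 9, 0 rose and 2 fell by edgeR, with 0 higher also at an unadjusted p of 0.05 and by DESeq2. Their median log2 fold change was -0.13, and it was positive for 2 of the 5. EFEMP2 had 24 and 21 counts in EGFP negative libraries and 13 and 12 counts in EGFP positive libraries. Its groups did not overlap, but its log2 fold change of 0.78 had a wide 95% interval (-0.09 to 1.64) and did not pass. FBLN5 was not tested, with 17 and 10 counts in EGFP negative libraries and 7 and 7 in EGFP positive libraries. The falls were in THBS1, encoding thrombospondin 1 (-1.77, adjusted p = 1.09e-09), and FBN1, encoding fibrillin 1 of microfibrils, which had 92.1 and 89.2 CPM in EGFP negative libraries and 148 and 159 CPM in EGFP positive libraries (-0.76 ± 0.09, SE, adjusted p = 3.43e-05).

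The substrates changed in both directions. Of 11 fibrillar chains 4 were tested, with 0 higher and 1 lower by edgeR. At an unadjusted p of 0.05 the counts were also 0 higher and 1 lower, and DESeq2 called 0 in either direction. COL5A1, the fibrillar chain with the highest level per length, had 135 and 123 CPM in EGFP negative libraries and 132 and 120 CPM in EGFP positive libraries and did not pass (log2 fold change 0.03, adjusted p = 0.845). The chain that fell, COL5A2, had 4 and 4 counts in EGFP negative libraries and 22 and 18 counts in EGFP positive libraries, and its call was lost without EGFP positive library 1 (adjusted p = 0.0518). A stricter filter on low counts left COL5A2 out, and DESeq2 gave it no adjusted p. Among other collagen chains 7 rose and 3 fell of 13 tested in a list of 16, with a median log2 fold change of 0.60. They included rises in COL6A1 (2.65), COL6A2 (3.43) and COL7A1, the anchoring fibril collagen (1.26), and a fall in COL8A1 (-1.76), with adjusted p-values of 2.18e-09, 1.64e-07, 4.73e-07 and 6.47e-09. The summed level of the 27 listed chains was 295 and 280 CPM per kb in EGFP negative libraries and 243 and 236 CPM per kb in EGFP positive libraries. The transmembrane chain COL13A1 made up the largest part of that sum. It had 131.5 and 126.9 CPM per kb in EGFP negative libraries and 86.6 and 83.4 in EGFP positive libraries. Set against the 27-chain sum, per kb, lysyl oxidases stood at 0.613 and 0.600 in EGFP negative and 0.664 and 0.639 in EGFP positive libraries. Lysyl hydroxylases stood at 0.455 and 0.443 in EGFP negative libraries and 0.422 and 0.423 in EGFP positive libraries. For prolyl hydroxylases the ratios were 0.110 and 0.141 in EGFP negative libraries and 0.0956 and 0.104 in EGFP positive libraries. These ratios describe transcripts in the libraries and were not tested. No ratio was taken without COL13A1, so their direction holds only for a sum that includes that chain.

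Several genes linked to the cofactors of the enzymes rose. Of 10 tested genes for ascorbate, iron and 2-oxoglutarate in a list of 11, 6 rose, 0 fell and 4 did not pass by edgeR. Among all tested genes 18.9% were called. The list's median log2 fold change was 0.34. DESeq2 called 3 higher and 0 lower, and 0 were lower at an unadjusted p of 0.05. IDH1, which makes 2-oxoglutarate in the cytosol, had 53.3 and 57.7 CPM in EGFP negative libraries and 29.8 and 29.9 CPM in EGFP positive libraries, so that its log2 fold change was 0.89 ± 0.11 (SE, adjusted p = 5.03e-05). SLC2A3, a glucose transporter that also carries dehydroascorbate, rose by 0.72 on the log2 scale (adjusted p = 0.00114), to a mean of 30.1 CPM in EGFP negative libraries. SLC2A1, from the same list, was far more abundant and did not pass (-0.12, adjusted p = 0.318). It had 638 and 574 CPM in EGFP negative libraries and 675 and 645 CPM in EGFP positive libraries. The ferritin genes FTL (0.59, adjusted p = 0.000193) and FTH1 (0.79, adjusted p = 0.00793) rose as well, but both have processed copies that can take their reads, so their values are uncertain. The size of the FTH1 change also depended on 1 library, with 251 and 138 CPM in EGFP negative libraries and 113 and 112 CPM in EGFP positive libraries, and a log2 fold change of 0.29 without EGFP negative library 1 and 1.17 without EGFP negative library 2. By DESeq2 the FTH1 call was lost (adjusted p = 0.239). Of 6 copper genes 1 rose and 0 fell by edgeR, with 0 lower also at an unadjusted p of 0.05 and 0 in either direction by DESeq2. The rise was in ATOX1, the chaperone that hands copper to the secretory pathway (0.34, adjusted p = 0.03), and the call was lost without EGFP positive library 1 (adjusted p = 0.103) or library 2 (adjusted p = 0.409). ATP7A, the pump that loads copper onto lysyl oxidases, did not pass (-0.04, adjusted p = 0.881).

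Among 93 tested genes of these lists, the 3 whose pattern over the 4 libraries was nearest to that of PLOD1 were SLC2A3, COLGALT2 and COL13A1, a transmembrane collagen. Their Euclidean distances from PLOD1, in centred log2 CPM with 0.5 CPM added, were 0.06, 0.14 and 0.15. COL13A1 had 436 and 420 CPM in EGFP negative libraries and 287 and 276 CPM in EGFP positive libraries. With 4 libraries in 2 groups, such a distance mostly reflects the size of the group difference.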

How the data were processed

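PolyA-selected, stranded libraries of 4 MDA-MB-231 samples (spelt MDA-B-231 in the sample titles) were sequenced, per the labels' protocols. The deposited values were raw counts of read pairs per gene name, made by the authors with featureCounts 2.0.1 over exons of the GENCODE 46 basic annotation, without a strand option and with no option to count pairs that overlap several genes, per the file headers. Which aligner was used is not given in the sources used here. The submitters' processing notes name GRCh37 and hg19, whereas GENCODE 46 is built on GRCh38, so coordinates are GRCh38 and the build of the alignments is uncertain.

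Groups came from the labels. Genes were kept by filterByExpr (minimum count 10, minimum total 15), leaving 16413. The test was edgeR 4.0.16 (R 4.3.3), a two-sided quasi-likelihood fit of all 4 libraries with TMM scaling and group as the only term, adjusted over all tested genes at 0.05. The SE of a log2 fold change is its size over the square root of F, and the 95% interval uses the test's degrees of freedom. With 2 libraries against 2, an exact permutation test cannot go below p = 0.333. Chi-square per degree of freedom between replicates was 6.15 in EGFP negative and 2.06 in EGFP positive libraries, so none was treated as a duplicate. Scripts were tested on simulated counts. Alternatives were RLE and upper quartile scaling, 2 other filters, DESeq2 1.42.0, limma-voom (limma 3.58.1), a replicate block and each library left out; figures used matplotlib 3.10.9.

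The members and gene lists were chosen with earlier results of these data known. Apart from all members, named genes are up to 4 per list that passed, by smallest adjusted p, or, where none passed, the 2 with the highest level. The 3 genes nearest to the member with the smallest p were added by distance. P4HB, P4HA3, CRTAP, PPIB, SERPINH1, ATP7A, HTRA2, LOXL1-AS1, EGLN1, HIF1AN, TGM2, PXDN and single marker genes were named outside that rule, after their values were seen, as were COL5A1, EFEMP2, FBLN5 and SLC2A1. The values of some marker genes are not reported here.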

Additional observations from a re-analysis of the deposited data

How the results depend on the processing

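LOXL1, PLOD1 and P4HA1 were called higher under all 11 alternatives, with log2 fold changes of 0.77 to 0.87, 0.65 to 0.82 and 0.64 to 1.01. LOXL3 was called lower under 10 of 11, and PLOD2 under 4. LOX, LOXL4, PLOD3 and P4HA2 were called under none of the 11, and LOXL2 under 1, the fit without EGFP negative library 2. A fit with 1 library left out takes its spread from the other group alone. Its calls therefore do not measure the spread of the group left with 1 library. The number of members lower was 2 with a stricter filter, by limma-voom and with the replicate block, and 0 to 2 with 1 library left out, in place of 1. Across all genes, DESeq2 called 1044 higher and 997 lower, and the counts ran from 720 to 2477 higher and from 715 to 2465 lower with 1 library left out. Labels give both groups the replicate numbers 1 and 2 without saying what they share; deviations of same-numbered libraries correlated at 0.14 across genes. With the replicate block 2297 genes were higher and 2407 lower, and PLOD2 passed (adjusted p = 0.00388). Of 381 values of named genes under alternatives, 356 kept direction and call and 0 turned direction with a call. The cause of the differences was not tested. LOXL3, COL5A2, F13A1 and EGLN3 rest on few counts, which limits their precision.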

Other observations

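Enzymes related to the members by chemistry were also measured. Among 14 other hydroxylases that use 2-oxoglutarate, 1 rose and 0 fell by edgeR, with a median log2 fold change of 0.01. At an unadjusted p of 0.05, 1 was higher and 2 lower, and DESeq2 called 0. The one that rose was EGLN3, a prolyl hydroxylase of hypoxia-inducible factors, with 27 and 22 counts in EGFP negative libraries and 10 and 8 counts in EGFP positive libraries (log2 fold change 1.37 ± 0.43, SE, edgeR adjusted p = 0.0385). That call was lost without EGFP negative library 1 (adjusted p = 0.0623), EGFP positive library 1 (0.149) or EGFP positive library 2 (0.271), and by DESeq2 (0.203). EGLN1 and HIF1AN, which also modify those factors, did not pass (0.10 and 0.04).

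Among other enzymes that crosslink matrix, 3 of 7 were tested and 1 rose. F13A1, the catalytic subunit of coagulation factor XIII, had 46 and 32 counts in EGFP negative libraries and 6 and 14 counts in EGFP positive libraries (log2 fold change 1.88 ± 0.43, SE, edgeR adjusted p = 0.00692), and the call was lost without EGFP positive library 1 (adjusted p = 0.0815). TGM2, a transglutaminase, had 859 and 786 CPM in EGFP negative libraries and 936 and 904 CPM in EGFP positive libraries, and did not pass (-0.16, adjusted p = 0.155). PXDN, the peroxidase that crosslinks collagen IV, had 374 and 334 CPM in EGFP negative libraries and 307 and 306 CPM in EGFP positive libraries, and did not pass (0.21, adjusted p = 0.0938).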
